A study of Mus musculus with 2 samples.

Results

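Antioxidant enzymes and metallothioneins were followed in cerebral cortex from presenilin-deficient mice and a control. The genes were Gpx1, Gpx3, Gpx4, Sod1, Sod2, Cat, Prdx1, Prdx2, Mt1 and Mt2, and every probe set that the array's probe-to-gene table pairs with exactly 1 of these symbols was taken. This gave 12 of the 12418 probe sets on the array, for 9 of the 10 genes. No probe set was paired with Prdx1 alone, so no value is given for it. Of the 12 probe sets, 9 had a signal that could be compared, for 8 genes, and the others were below the intensity floor on both arrays.

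Total RNA of mouse cerebral cortex was hybridised to 2 oligonucleotide arrays, 1 for the presenilin conditional double knockout (called PS cDKO) and 1 for its control, both at 6 months of age. Presenilins form the active site of γ-secretase, an intramembrane protease whose substrates include the amyloid precursor protein and Notch. The labels name no alleles, promoter driving a recombinase, control genotype, strain or sex, and do not say whether an array holds RNA of 1 animal or of a pool. With 1 array per genotype no difference below can be set against the spread between animals. No p-value is given, and every value is a single measurement.

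Aerobic tissue makes superoxide and hydrogen peroxide as by-products of respiration and of oxidase enzymes. Superoxide dismutases turn superoxide into hydrogen peroxide. Catalase breaks this down, and glutathione peroxidases and peroxiredoxins reduce it to water. Glutathione peroxidases draw their electrons from glutathione and peroxiredoxins from thioredoxin. Metallothioneins are small cysteine-rich proteins that bind zinc and copper and also react with oxidants. In brain, Mt1 and Mt2 are known mainly from astrocytes and Mt3 from neurons and astrocytes.

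Signals are array intensities as deposited, in linear units, and the ratio is PS cDKO over control after a scaling that added 0.034 on the log2 scale to the PS cDKO array. An intensity under 232, which is the pooled 40th percentile after scaling, was treated as not measured. Array medians were 300 and 305. The floor left 59.1% of control and 60.9% of PS cDKO signals. Psen2, a presenilin gene, had intensities of 105 and 94.9 in its probe set, both below the floor, so it gave no check of the genotype. Across the 6255 probe sets that had 1 gene symbol and exceeded the floor on both arrays, the robust SD of the log2 ratio was 0.24, or 1.18-fold. Pairs of probe sets, the 2 brightest of each of 749 genes, gave an SD of 0.21 for 1 probe set on the log2 scale, which holds no variation between animals. Defining markers of cortical neurons were measured, among them Snap25, with intensities of 4705 (control) and 3548 (PS cDKO), and Tbr1, with 899 and 616.

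A difference was counted when the log2 ratio reached 0.32 or -0.32, that is 25% above or 20% below the control level. Among the 9 measured probe sets, that of Gpx1 passed this threshold upward, and those of Gpx4 and Sod1 passed it downward. Of all 6905 probe sets with a ratio, 8.57% passed upward and 8.82% downward. With 9 probe sets, 1 higher and 2 lower are counts near this background. At 1.5-fold the members gave 0 higher and 0 lower, where the background was 1.27% and 1.01%, and at 2-fold likewise 0 and 0, against 0.159% and 0.116%. The members were 4 higher and 5 lower in sign, with a median log2 ratio of -0.06, against 0.01 for all probe sets with a ratio. The enzymes therefore did not share a direction, and Gpx1 and Gpx4, of a single family, differed from control in opposite directions.

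**Figure D1:**
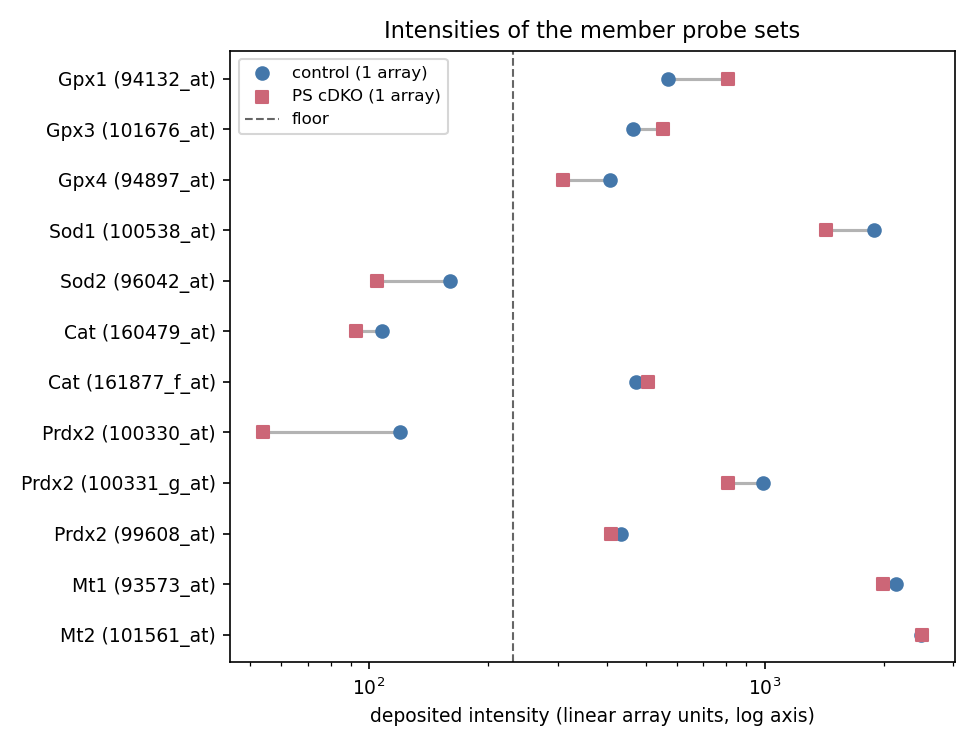
Deposited intensity on a log axis for each of the 12 member probe sets, with the control array as a circle, the PS cDKO array as a square and the floor of 232 as a dashed line. The square lies to the right of the circle for Gpx1, Gpx3, 1 Cat probe set and Mt2, and 3 probe sets lie below the floor on both arrays.

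Gpx1 encodes the abundant cytosolic and mitochondrial glutathione peroxidase, a selenoprotein that reduces hydrogen peroxide. Its probe set had intensities of 569 (control) and 807 (PS cDKO). The PS cDKO was higher by 1.45-fold, a log2 ratio of 0.54. This was the largest difference among the members, and 1.55% of the probe sets measured on both arrays had a ratio as high or higher. Its log2 ratio stayed between 0.50 and 0.54 under every scaling and floor tried.

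Gpx3 encodes the secreted, plasma form of glutathione peroxidase. Its probe set read 464 (control) and 553 (PS cDKO), a log2 ratio of 0.29 or 1.22-fold higher, just short of the threshold. A ratio as high or higher was found for 10.4% of probe sets.

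Gpx4 encodes the phospholipid hydroperoxide glutathione peroxidase, which reduces lipid peroxides within membranes and guards cells against ferroptosis. Its probe set read 406 (control) and 309 (PS cDKO). This is 1.28-fold lower, a log2 ratio of -0.36, and 6.76% of probe sets had a ratio as low or lower. The log2 ratios of Gpx1 and Gpx4 thus lay 0.90 apart, with Gpx3 on the side of Gpx1. Both arrays gave Gpx4 a signal not far above the floor. With a floor at the 60th percentile, an intensity of 403, the PS cDKO signal was no longer measured and Gpx4 gave only a bound of at least 1.01-fold lower.

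Sod1 encodes the cytosolic copper and zinc superoxide dismutase. Its probe set read 1889 (control) and 1426 (PS cDKO), well above the floor on both arrays. It was 1.29-fold lower, a log2 ratio of -0.37, and 6.04% of probe sets had a ratio as low or lower. After lowess smoothing, which removes a trend of the ratio with signal, it was -0.30, and after quantile normalization -0.31, both just short of the threshold. Sod2, the mitochondrial manganese enzyme, read 160 and 105 in its probe set, below the floor on both arrays, and has no ratio. With a floor at the 20th percentile, an intensity of 114, it was lower by at least 1.40-fold.

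Catalase, encoded by Cat, breaks down hydrogen peroxide mainly in peroxisomes. Its 2 probe sets did not give the same picture. The brighter read 472 (control) and 507 (PS cDKO), a log2 ratio of 0.14 or 1.10-fold higher, whereas the dimmer read 108 and 92.9, below the floor on both arrays. The brighter carries the ending _f_at, which marks a less specific design. Without a floor the mean of both was a log2 ratio of -0.02, so no direction can be given for the gene.

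Peroxiredoxin 2, encoded by Prdx2, is a cytosolic thioredoxin-dependent peroxidase found in neurons and, at high level, in red blood cells. It had 3 probe sets. The brightest read 994 (control) and 809 (PS cDKO), 1.20-fold lower with a log2 ratio of -0.26, and carries the suffix _g_at. The next, which has no suffix, read 435 and 408, a log2 ratio of -0.06. Without suffixed probe sets the value of Prdx2 was this -0.06 alone. The ratios of these 2 probe sets lay 0.21 apart on the log2 scale. The SD given above is for 1 probe set and is not the spread of a difference between 2. The last read 120 and 54.0, below the floor on both arrays. The measured pair were both lower in the PS cDKO, and their mean was a log2 ratio of -0.16, or 1.12-fold lower, short of the threshold.

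**Figure D2:**
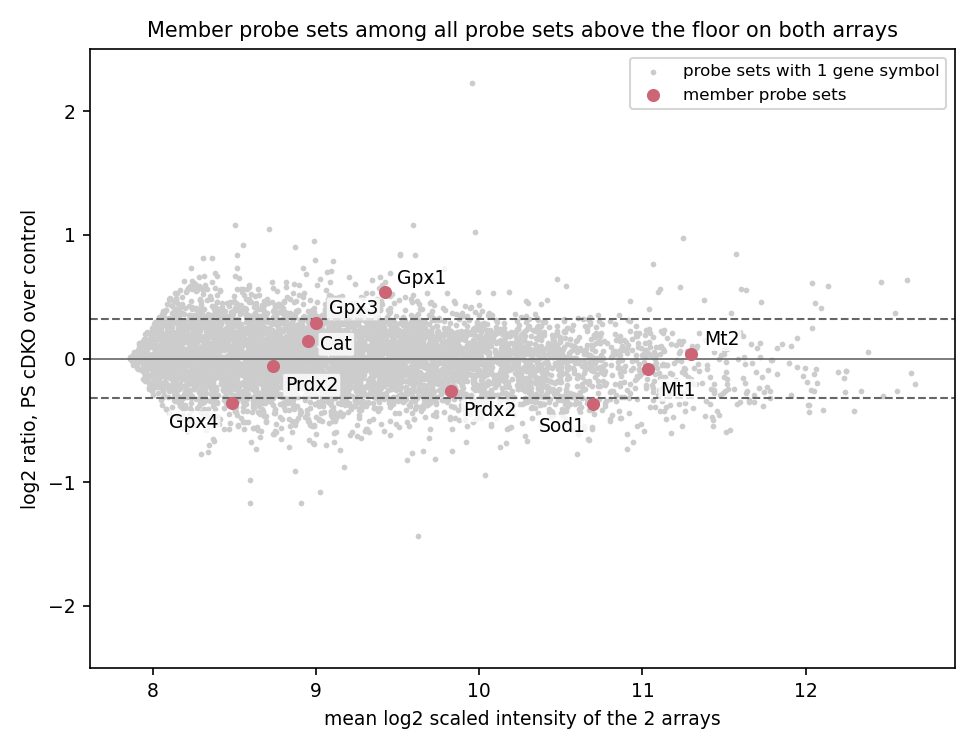
Log2 ratio of PS cDKO over control against mean log2 scaled intensity, for the 6255 probe sets with 1 gene symbol above the floor on both arrays (grey) and the 9 member probe sets among them (red, with gene names). Dashed lines mark log2 ratios of 0.32 and -0.32; Gpx1 lies above the upper line, and Gpx4 and Sod1 lie just below the lower one.

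Mt1 and Mt2, the widely expressed metallothionein genes, are neighbours on mouse chromosome 8, and the RefSeq start sites used for the windows below lie 6471 bases apart on the same strand. Their transcription is known to be induced by zinc, through the metal-responsive factor MTF1, and by glucocorticoids and inflammation. The windows from 250 bases before to 50 bases after the RefSeq start sites (build GRCm38.p6, plus strand) are shown because these neighbouring genes were bright on both arrays and, as gene values in the main setting, differed least of the 8 measured genes. Capitals mark matches to the core of the metal response element, searched as TGCACNC and TGCGCNC on both strands, at chr8:94178839-94179138 for Mt1 and chr8:94172368-94172667 for Mt2.
Mt1: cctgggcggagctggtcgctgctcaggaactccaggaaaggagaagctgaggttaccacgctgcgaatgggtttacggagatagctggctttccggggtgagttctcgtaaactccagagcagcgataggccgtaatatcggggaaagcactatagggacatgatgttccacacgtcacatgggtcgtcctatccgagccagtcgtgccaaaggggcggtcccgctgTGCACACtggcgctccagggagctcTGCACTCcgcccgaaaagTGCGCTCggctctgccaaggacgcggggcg
Mt2: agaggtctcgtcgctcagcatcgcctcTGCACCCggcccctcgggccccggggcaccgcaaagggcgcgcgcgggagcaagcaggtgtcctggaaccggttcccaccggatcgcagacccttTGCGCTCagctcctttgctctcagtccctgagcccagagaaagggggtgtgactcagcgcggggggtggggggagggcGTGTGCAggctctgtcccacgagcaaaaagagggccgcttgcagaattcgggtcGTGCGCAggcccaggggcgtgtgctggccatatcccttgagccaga

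The Mt1 window held 3 matches and the Mt2 window 4, none of them overlapping. Of the 32851 promoter windows of the same length in the RefSeq table, 25.7% held at least 1 match, 1.97% at least 3 and 0.517% at least 4. The windows of the other members, Prdx1 included, held 0 matches. The core of the antioxidant response element bound by NRF2, searched as TGACNNNGC on both strands, had 1 match in each of the Mt2, Sod1 and Prdx1 windows, none overlapping a metal response match, and at least 1 in 12.4% of all windows. A match is only a description of these letters.

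The Mt1 probe set read 2154 (control) and 1988 (PS cDKO), a log2 ratio of -0.08. The Mt2 probe set read 2486 and 2498, a log2 ratio of 0.04. The 2 genes lay within 1.06-fold and 1.03-fold of the control level, and their log2 ratios were 0.12 apart. These ratios were no larger than the shifts between scalings. After lowess Mt1 was at 0.01 and Mt2 at 0.15, so the sign for Mt1 turned, and after quantile normalization Mt2 was at 0.17. In every setting both stayed inside the threshold of 0.32. Mt3, the brain-enriched family member, read 5099 (control) and 4463 (PS cDKO), a log2 ratio of -0.16 or 1.12-fold lower. Its sign, too, turned in a setting, with log2 ratios from -0.19 to 0.02. Mtf1, which encodes the metal-responsive transcription factor, read 112 in the control, below the floor, and 349 in the PS cDKO, and was at least 1.54-fold higher. That bound rests on the floor: flooring at the 20th percentile gave at least 3.12-fold and no floor a ratio of 3.19-fold, and with a floor at the 60th percentile Mtf1 was not measured on either array.

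Other genes of these pathways were taken from 7 lists of peroxidases, glutathione enzymes, the thioredoxin system, NRF2 targets, selenium supply, metal handling and sources of reactive oxygen species. Of 124 listed genes 64 were measured, with a median log2 ratio of 0.01, 34 higher and 30 lower. The threshold of 0.32 was passed upward by 3 of them (4.69%) and downward by 4 (6.25%). Among all 5885 measured genes the shares were 8.05% and 8.36%. Neither share of these lists was above that of all measured genes.

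Of the other peroxidases and dismutases, 4 of 11 genes were measured, with a median log2 ratio of 0.22, 4 higher, and none past the threshold. Prdx3, the mitochondrial peroxiredoxin, read 327 (control) and 375 (PS cDKO), a log2 ratio of 0.23. Sod3, the extracellular superoxide dismutase, read 465 and 525, a log2 ratio of 0.21, which is the opposite sign from Sod1. Ccs, the chaperone that loads copper into Sod1, was 1.23-fold higher over its 3 measured probe sets, while Sod1 itself was 1.29-fold lower. Those 3 probe sets carry suffixes for less specific designs, and without such probe sets Ccs was not measured. Gpx2, the epithelial glutathione peroxidase, was at 0.03, and at -0.01 as deposited. Prdx4, the peroxiredoxin of the endoplasmic reticulum, was below the floor on both arrays, and for Prdx5 and Prdx6 no probe set was paired with the symbol alone.

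In the glutathione list 15 of 29 genes were measured, 6 higher and 9 lower, with a median of -0.07. Mgst3, a membrane-bound glutathione transferase and peroxidase, read 633 (control) and 404 (PS cDKO), 1.53-fold lower. Without a floor a further, dim probe set of Mgst3 entered the mean (37.0 against 55.7), and the log2 ratio was 0.0045. Gstm2, a glutathione transferase, was 1.27-fold higher (531 and 656) in 1 probe set that also carries a suffix. Gstm5 was at -0.24 and Gsto1 (283 and 226) at -0.29, with a PS cDKO signal that only just exceeded the floor after scaling. Gsr, the reductase that regenerates glutathione, was below the floor on both arrays.

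In the thioredoxin list 7 of 10 genes were measured, 3 higher and 4 lower, with a median of -0.08. Txn1, the cytosolic thioredoxin that supplies peroxiredoxins, read 1178 (control) and 1049 (PS cDKO), a log2 ratio of -0.13, and Txn2, its mitochondrial counterpart, was at -0.15. Srxn1 encodes sulfiredoxin, which restores over-oxidised peroxiredoxins, and was 1.39-fold higher (274 and 371) in 1 probe set that carries a suffix. Its probe set without a suffix (110 and 130) was below the floor on both arrays. The measured signal was near the floor. Srxn1 was not measured with a floor at the 60th percentile or without suffixed probe sets. Msrb1, a selenoprotein that repairs oxidised methionine, was at -0.10, and Txnrd1, the cytosolic thioredoxin reductase, was below the floor on both arrays.

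The NRF2 list had 9 of 19 genes measured, 5 higher and 4 lower, with a median of 0.0027. Nfe2l2, which encodes NRF2 itself, was below the floor on both arrays, as was its target Nqo1. Hmox1, the inducible haem oxygenase, read 1143 (control) and 1275 (PS cDKO), a log2 ratio of 0.19. Sqstm1, an autophagy receptor that also binds KEAP1, read 774 and 539 and was 1.40-fold lower, the only member of the list above the floor on both arrays to pass the threshold. Keap1, the repressor of NRF2, was at -0.19, Mafk at -0.20 and Aox1 at 0.28. Maff, named after its values were seen, read 303 in the control and 226, below the floor, in the PS cDKO, a bound of at least 1.31-fold lower.

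Among genes of selenium supply and other selenoproteins, 5 of 16 were measured, with a median of -0.12. Selenot, a thioredoxin-like selenoprotein of the endoplasmic reticulum, read 1293 (control) and 912 (PS cDKO) and was 1.38-fold lower. Dio2, the astrocytic deiodinase that makes active thyroid hormone, was at -0.18, Selenof at -0.12 and Selenok at 0.06. The sign of Selenok turned between settings (-0.14 to 0.25). Gpx1 and Gpx3, selenoproteins themselves, were higher, and Gpx4 and Selenot lower, so selenoprotein transcripts did not share a direction.

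Of 25 genes that handle zinc, copper and iron 17 were measured, 8 higher and 9 lower, with a median of -0.02, and Mtf1 was the only 1 past the threshold. Slc30a3, which loads zinc into synaptic vesicles, read 1827 (control) and 1533 (PS cDKO), a log2 ratio of -0.22. Slc39a7, a zinc transporter of the endoplasmic reticulum, was at -0.31, with log2 ratios from -0.34 to -0.02 between settings. Slc30a5 was at 0.21 and Aco1, a cytosolic aconitase that also senses iron, at -0.18. Of genes that generate oxidants 7 of 14 were measured, 6 higher, with a median of 0.06 and none past the threshold. Cyba, a subunit of the phagocyte NADPH oxidase, read 332 and 393, a log2 ratio of 0.27, and Ncf1, another subunit, was at 0.12. Nos1, the neuronal nitric oxide synthase, was at -0.08, and Nos3, the endothelial form, at 0.03, or -0.0047 as deposited.

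**Figure D3:**
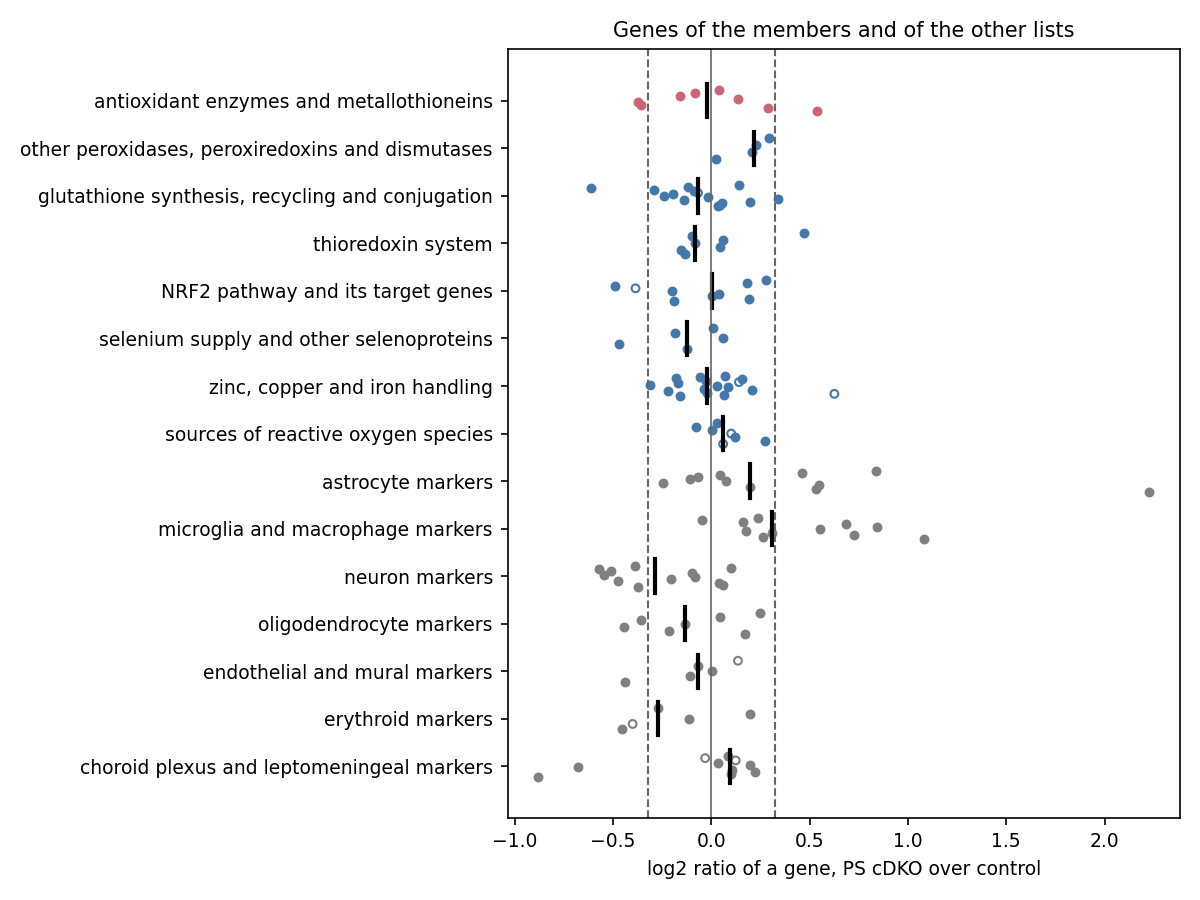
Log2 ratio of PS cDKO over control for each measured gene of the antioxidant enzymes and metallothioneins (red), the 7 other pathway lists (blue) and 7 cell type marker lists (grey), with list medians as black bars, bounds as open circles and log2 ratios of 0.32 and -0.32 as dashed lines. The medians of 6 of the pathway lists lie between -0.12 and 0.06 and that of other peroxidases and dismutases is 0.22, while microglia markers have a median of 0.31 and neuron markers one of -0.29.

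Cell type markers differed between the arrays beside these values. Of 11 measured microglia and macrophage markers 10 were higher in the PS cDKO, with a summed intensity of 6366 (control) and 9063 (PS cDKO). C1qa read 532 and 1098, while Fcer1g and Aif1 were below the floor on both arrays. Of 11 astrocyte markers 8 were higher, with sums of 20676 and 23380. Gfap read 458 and 2095 in its brighter probe set, and without Gfap, a sum added after the values were seen, the other 10 gave 20030 and 19872. All these sums are of intensities before scaling and weigh bright probe sets most, so they do not show how many markers were higher. By gene, 5 of the 11 astrocyte markers passed the threshold upward and 0 downward. Aldoc read 3296 and 2713, a log2 ratio of -0.25, while Fgfr3 was below the floor on both arrays. Of 12 neuron markers 9 were lower, with sums of 24897 and 20084, and Thy1 read 3344 and 2239, while Gad2 was below the floor on both arrays. Of 5 erythroid markers 4 were lower, with sums of 4657 and 3729, and Hba-a1 read 2104 and 1500, while Slc4a1 was below the floor on both arrays. Gpx1 was thus higher on an array where microglia markers and Gfap were higher, and Sod1, Gpx4 and Prdx2 lower on an array where neuron and erythroid markers were lower. The part of cell composition in these values was not tested, and in tissue RNA fewer cells of a type and less RNA per cell cannot be told apart. Mt1 and Mt2, known mainly from astrocytes in brain, were within 1.06-fold of control. Among the astrocyte markers Gfap was 4.68-fold, Serpina3n 1.79-fold, Gja1 1.46-fold, Aqp4, the astrocyte water channel, 1.45-fold, Vim 1.38-fold and Slc1a2 1.15-fold higher. The Gja1 value is the mean of probe sets with log2 ratios of 0.02 and 1.08. The other measured astrocyte markers were S100b at 0.07, Clu at 0.04, Ndrg2 at -0.06, Glul at -0.11 and Aldoc at -0.25 on the log2 scale. Vim, Slc1a2, S100b, Clu, Ndrg2, Glul and Aldoc were named after their values were seen.

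Other marker lists differed less or not in a single direction. Of 7 measured oligodendrocyte markers 3 were higher and 4 lower, with sums of 11609 and 10340, and Mog and Cnp were below the floor on both arrays. The threshold was passed upward by 0 of the 7 and downward by 2. Mobp was 1.36-fold lower over its 4 probe sets, and Cldn11 (463 and 353) 1.28-fold lower. With no floor the log2 ratio of Cldn11 was 0.13. For 5 endothelial and mural markers the sums were 2559 and 2420, with Pecam1, Tek, Cdh5, Pdgfrb and Acta2 below the floor on both arrays. Of these 5, 2 were higher and 3 lower. Cldn5 (320 and 231) was 1.35-fold lower, the only 1 past the threshold, with a PS cDKO signal that only just exceeded the floor after scaling. For 10 choroid plexus and leptomeningeal markers the sums were 9131 and 8899, with 7 higher and 3 lower and a median log2 ratio of 0.09. Aqp1 was at 0.22, though at -0.40 in the lowest setting, and Col1a1 at 0.20. Ttr, the choroid plexus transthyretin gene, was 1.84-fold lower and Igfbp2 (492 and 301) 1.60-fold lower, the only 2 of this list past the threshold. Between settings the log2 ratio of Igfbp2 ran from -0.72 to -0.29, the latter short of the threshold. Kl and Lum were below the floor on both arrays.

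**Figure D4:**
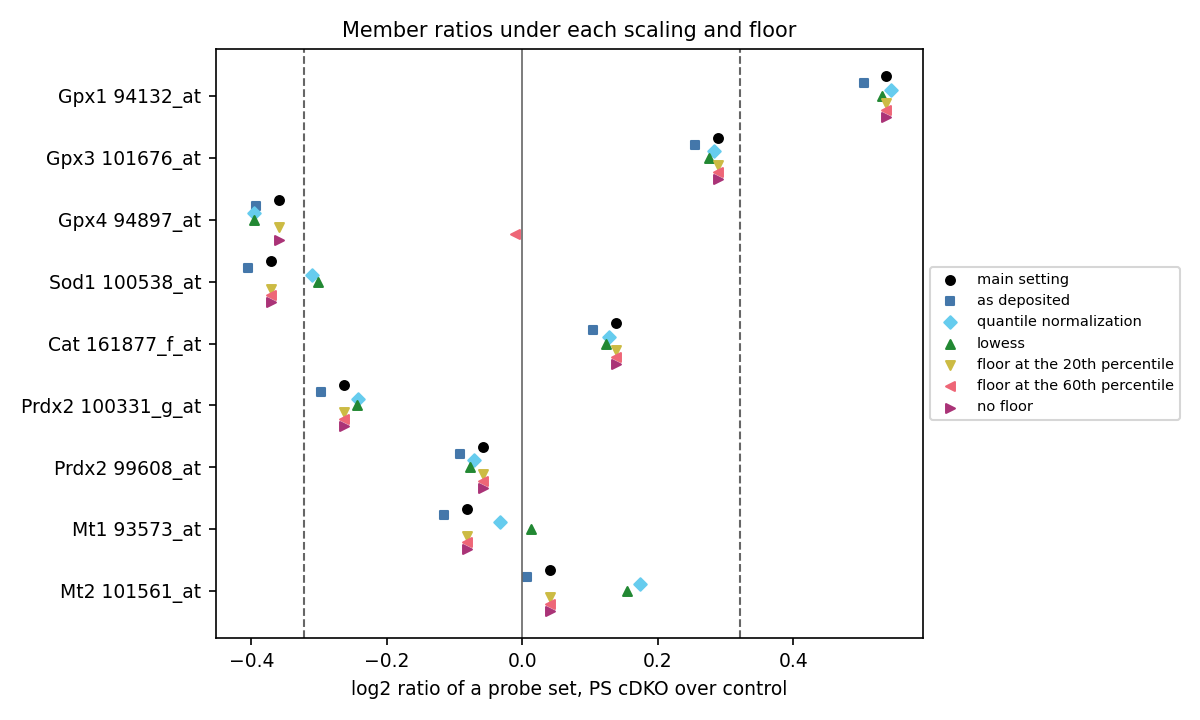
Log2 ratio of PS cDKO over control for the 9 measured member probe sets under the main setting and 6 other scalings and floors, with log2 ratios of 0.32 and -0.32 as dashed lines. Gpx1 stays between 0.50 and 0.54, Gpx4 reaches -0.01 as a bound with the floor at the 60th percentile, Sod1 crosses the lower dashed line under quantile normalization and lowess, and the sign of Mt1 turns under lowess.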

How the data were processed

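RNA of 1 control and 1 PS cDKO cortex sample was compared. Per probe set and array the deposited value is a linear intensity. How the authors made it (software, background step, summary, scaling) is information not given in the sources used here. It was negative for 13 and 18 probe sets. The number of arrays limits the precision. Of 12418 probe sets 10829 had 1 gene symbol in a platform annotation that can be old, 396 had several and 1193 none. Symbols were updated by gene ID through RefSeq (GRCm38.p6), where 10813 matched.

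Scaling the PS cDKO array brought the median log2 ratio to 0 over probe sets brighter than the median on each array. A floor was set at the 40th percentile; a probe set under it on 1 array gives a bound, on both none. A gene's ratio is the mean over its fully measured probe sets, or failing these over its bounds. Members and lists were chosen with earlier results of these data known. Named were all members, up to 4 genes per list with the largest absolute measured ratio, 12 regulators and relatives, and defining markers at the floor. Alternatives were 3 scalings, 3 floors, no suffixed probe sets, 1.5-fold and 2-fold thresholds, and a gene's brightest probe set. A value was taken as moved past 0.21 on the log2 scale. The script was tested on simulated data. Promoter sequences are RefSeq's. Python 3.11.15, numpy 2.4.6, pandas 2.3.3, statsmodels 0.14.6 and matplotlib 3.10.9 were used.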

Additional observations from a re-analysis of the deposited data

How the results depend on the processing

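No paired analysis was possible because there is 1 sample a group, and no sample could be left out. The median of all probe sets moved by less than 0.1 on the log2 scale in every setting. The count of member probe sets past 0.32 upward, 1, became 0 at 1.5-fold and 0 at 2-fold, and was 1 under every other alternative. The count past -0.32 downward, 2, became 1 with quantile normalization, 1 with lowess, 1 with a floor at the 60th percentile, 4 with no floor, and 0 at 1.5-fold and at 2-fold. The 4 include Prdx2 (log2 ratio of -1.11) and Sod2 (-0.58), from signals below the main floor. The median of microglia markers, 0.31, became 0.55 when floored at the 20th percentile, 0.59 when floored at the 60th and 0.68 without suffixed probe sets, and that of oligodendrocyte markers, -0.13, became 0.13 with no floor. Of 137 alternative values of the counts and list medians, 125 moved by less than 0.21, or by no more than 1.5 times for a count. That limit of 0.21 is the SD of 1 probe set, which is wide beside list medians near 0. Inside it some medians turned sign between settings. These were NRF2 targets (-0.03 to 0.13), selenium supply (-0.16 to 0.03), metal handling (-0.05 to 0.05) and choroid plexus and leptomeningeal markers (-0.03 to 0.09). The median of astrocyte markers ran from 0.07 to 0.33. The causes were not tested. Signals near the floor, as for Gpx4 and Srxn1, limit what these arrays can show.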
